A study of Mus musculus with 17 samples.

Results

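Claudins, desmosomal proteins and the scaffold and MARVEL proteins of tight junctions were examined in medullary thymic epithelial cells as 43 genes among the 19752 genes that had a probe set of their own on the array. The members were taken by gene symbol alone, with 1 probe set per gene, and comprised 23 claudins, 7 desmosomal cadherins, 6 desmosomal plaque proteins and 7 tight junction plaque or MARVEL proteins. Of these, 35 passed the filter on dim probe sets and were tested, and 8 did not. The genes were measured on Affymetrix Mouse Gene 1.0 ST arrays in 6 groups of sorted cells, all from C57BL/6 mice of mixed sex that carried the Adig transgene, an Igrp-GFP reporter driven by Aire, so that GFP marks cells in which the Aire locus is active.

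The groups were Aire-knockout (KO) GFP+ cells of perinates on 3 arrays, Aire-wild-type (WT) GFP+ cells of perinates on 3 arrays, WT GFP- cells of perinates on 2 arrays, and the same KO, WT GFP+ and WT GFP- populations of adults on 3 arrays each. All were sorted as CD45- Ly51- MHCIIhi cells. Perinates are labelled as 3 days old, while the series text gives 0 to 3 days, and adults were 5 weeks old. GFP- cells were sorted from WT mice only. The labels do not say whether the arrays of a group came from separate animals, so every p-value reflects only how far these arrays scatter, a scatter that could be technical, and 2 to 3 arrays a group limit the precision.

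Claudins are 4-pass membrane proteins that join neighbouring epithelial cells in the strands of the tight junction, some sealing the gap between cells and others forming ion-selective pores. Occludin and the other MARVEL proteins lie in the same strands, and the ZO proteins (Tjp genes), cingulin and paracingulin bind them to the cytoskeleton from inside. Desmosomes are the separate spot-like junctions in which desmocollins and desmogleins of adjoining cells bind each other, while plakoglobin, plakophilins and desmoplakin tie them to keratin filaments. In the thymic medulla, claudin-3 and claudin-4 are used to mark embryonic epithelial cells that give rise to Aire-expressing cells, and Aire itself drives the expression of many genes otherwise restricted to peripheral tissues.

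All 10 medullary epithelial markers examined lay above the filter on every array. Their summed intensity was lowest in perinate WT GFP- cells (28521 to 30755, against 43533 to 46549 in perinate WT GFP+ cells). Krt5 and Krt14 went the other way, averaging 5358 and 3371 in perinate WT GFP- cells against 3251 and 1855 in perinate WT GFP+ cells. The other listed markers averaged lower in perinate WT GFP- cells. Aire averaged 5272 in perinate KO, 4773 in perinate WT GFP+ and 310.5 in perinate WT GFP- cells, and 4927, 5097 and 690.0 in the adult KO, WT GFP+ and WT GFP- groups. The deleted part of Aire is not stated, so its probe set does not check the KO label. Perinate KO arrays 2 and 3 stood apart in Y-linked transcripts: Eif2s3y read 18.7 and 15.7 on them, against 255.4 to 545.3 on the other 15 arrays. Uty read 19.2 and 16.1, against 168.9 to 366.2 on the others. Xist was highest on these 2 arrays, at 5202.8 and 5167.0 against 2103.9 to 4508.6. Sex is thus unbalanced in the perinate KO comparison despite the mixed-sex label, and its part in the KO differences was not tested. For the calls described, results that change without perinate KO arrays 2 and 3 are given with and without them. The array medians lay between 144.5 and 157.1.

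Tested genes had to exceed their array's 40th percentile of intensity (96.2 to 112.1) on at least 2 arrays, which left 13842 genes. The 8 members below that level were Cldn2, Cldn15, Cldn16, Cldn17, Cldn22, Cldn24, Dsg1c and Dsg4, with intensities of 16.33 to 88.19 on all arrays. Several dim claudins passed only through the group in which they were high. Cldn18 passed only on the 3 adult WT GFP+ arrays, Cldn10 only on WT GFP+ arrays (3 adult and 1 perinate) and Cldn8 only on the 2 perinate WT GFP- arrays. Cldn19 passed only on WT GFP+ arrays (1 adult and 3 perinate), and Cldn20 on 4 WT GFP+ arrays and 1 perinate WT GFP- array. Cldn13 passed on all GFP+ arrays and on 0 GFP- arrays. A difference in those members is thus partly fixed by the filter, and intensities this close to background understate fold changes. Intensities of different probe sets are not compared with each other.

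Among the 35 tested members, calls were most frequent between GFP+ and GFP- cells and between perinate and adult GFP- cells. The same was true over all genes. In perinates, 19 members were called between WT GFP+ and WT GFP- cells (9 higher and 10 lower), 54.3% of those tested, against 43.5% of all genes (higher 23.0%, lower 20.5%). In adults 19 were also called (8 higher and 11 lower), against 44.9% of all genes (higher 24.7%, lower 20.1%). A call means a Benjamini-Hochberg adjusted p under 0.05 in a limma model of all 17 arrays, adjusted over 13842 genes. The median log2 difference of the members was 0.14 in perinates and -0.20 in adults, beside 0.00 and 0.02 over all genes. The difference in the GFP+ to GFP- ratio between the ages was called for 7 members (3 higher and 4 lower), 20.0% of those tested, against 20.0% of all genes (higher 10.7%, lower 9.28%).

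Between perinate and adult WT GFP- cells, 18 members were called (5 higher and 13 lower in perinates), 51.4% against a background of 46.4% (higher 22.2%, lower 24.2%). In WT GFP+ cells 11 were called between the ages (4 higher and 7 lower), 31.4% against 22.2% (higher 8.52%, lower 13.6%). KO cells gave 10 calls between the ages (5 higher and 5 lower), 28.6% against 26.0% (higher 13.4%, lower 12.7%). Member medians in these age comparisons were -0.10, -0.11 and -0.02, beside 0.016, -0.002 and -0.012 over all genes. The age comparison in WT GFP+ cells shares its WT GFP+ arrays with the KO and the GFP+ to GFP- comparisons of each age. The age comparison in GFP- cells shares its GFP- arrays with the GFP+ to GFP- comparisons of each age. The difference in the GFP+ to GFP- ratio between the ages uses all of these WT arrays. Calls of the same gene in several of these comparisons are thus not independent, above all where they rest on the few perinate GFP- arrays.

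KO and WT GFP+ cells differed in 9 members in perinates (3 higher and 6 lower in KO cells), 25.7% against a background of 26.5% (higher 13.5%, lower 13.0%). In adults 8 members were called (2 higher and 6 lower), 22.9% against 19.9% (higher 9.06%, lower 10.8%). Among the lower calls, Cldn10, Cldn18 and Cldn20 at both ages and Cldn19 in perinates had no KO array above the filter. Their direction, and so these counts, are partly fixed by the filter. The member medians were -0.15 in perinates and -0.08 in adults, beside 0.09 and 0.06 over all genes. Without perinate KO arrays 2 and 3, only the calls of Dsg1b and Cldn6 were left among the 9 in perinates. The KO effect itself differed between the ages in 1 member, Cldn18 (higher), or 2.9% against 1.21% of all genes (higher 0.722%, lower 0.484%). No member was called in all 7 comparisons of groups, and Cldn5, Cldn11 and Cldn14 were called in none.

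**Figure D1:**
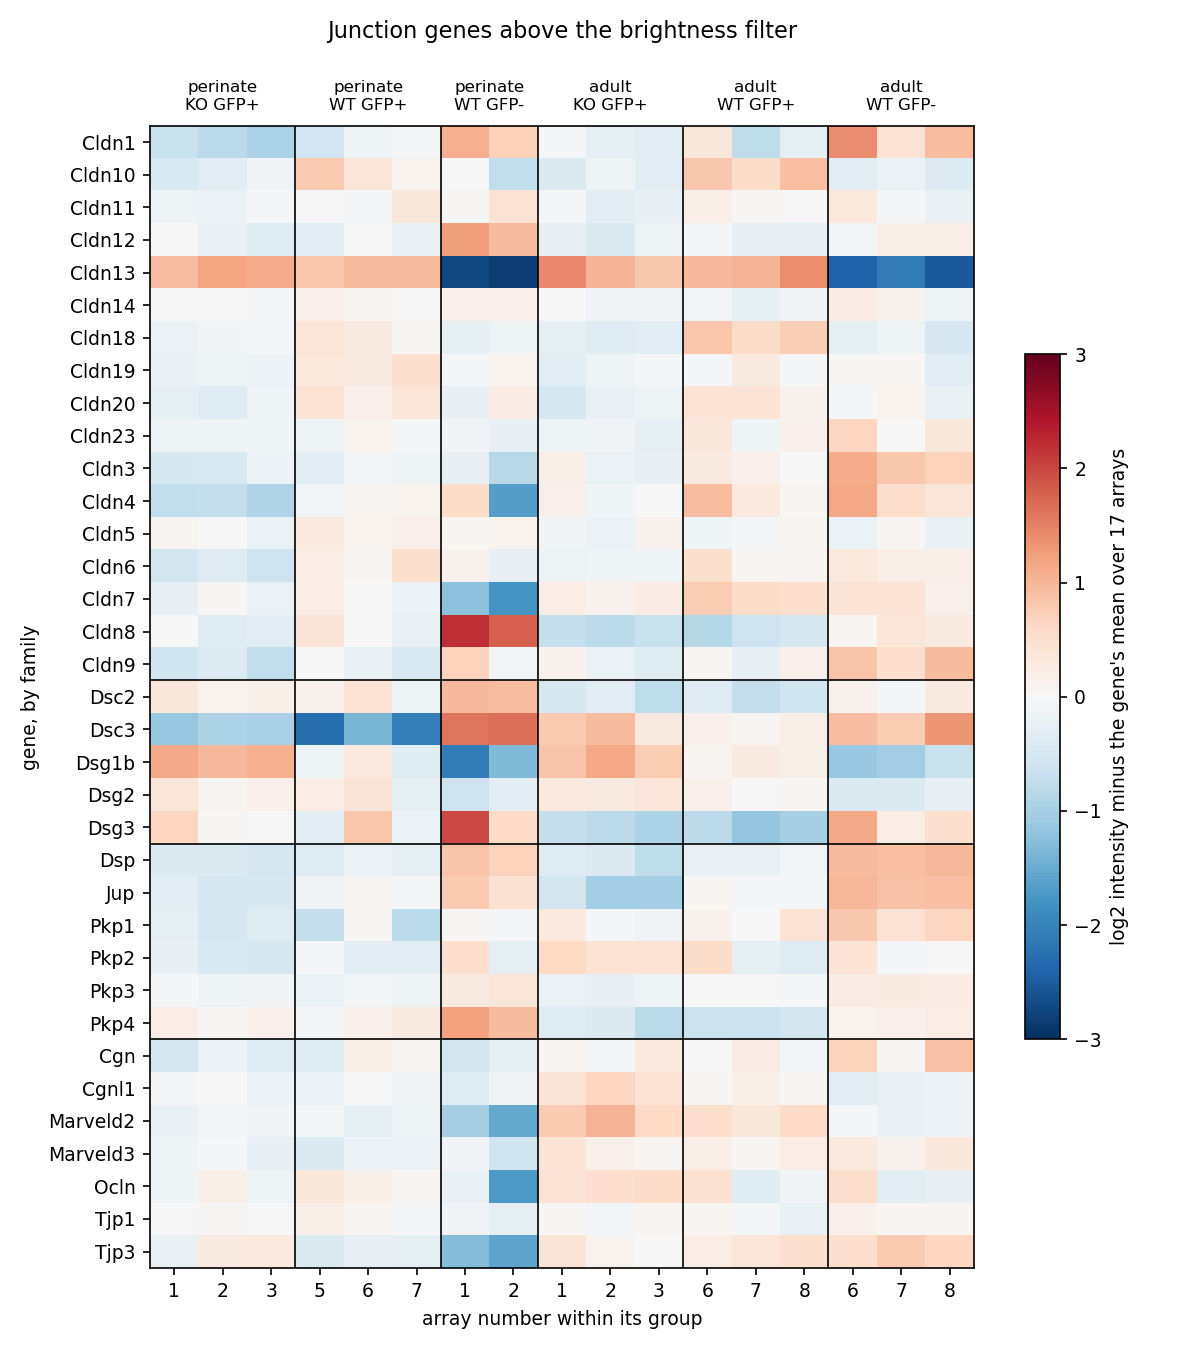
Log2 intensity of each tested junction gene on each of the 17 arrays, as the difference from that gene's mean over all arrays (colour scale), with genes in lines by family and arrays in columns by group. Cldn13 is low on all 5 GFP- arrays, Dsc3 is low in the 6 perinate GFP+ arrays and high in perinate GFP- cells, and Cldn7 and Tjp3 are low in perinate GFP- cells.

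Of all members, Cldn13, a claudin of rodents without a human counterpart, showed the largest positive GFP+ to GFP- difference at either age. Its intensities were 870.0, 1043 and 988 in perinate KO cells, against 818, 882 and 888 in perinate WT GFP+ cells and 68.7 and 63.8 in perinate WT GFP- cells. In adults they were 1242, 928 and 809 in adult KO cells, against 899, 927 and 1209 in adult WT GFP+ cells and 85.5, 107 and 80.0 in adult WT GFP- cells. No GFP+ array came near a GFP- array, and KO and WT GFP+ values overlapped at both ages. GFP+ cells were 13.0-fold higher than GFP- cells in perinates (log2 difference 3.70 ± 0.17, adjusted p = 1.3e-10) and 11.1-fold higher in adults (log2 difference 3.47 ± 0.15, adjusted p = 2.8e-10). GFP- arrays lay below the filter for this probe set, so these ratios are set against a level near background.

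Cldn13 lies in a gene order of Tmem270, Cldn13, Mettl27, Cldn4, Cldn3 and Abhd11, and no other gene of this row had a positive log2 difference above 0.58 in GFP+ against GFP- cells. Cldn4, whose protein is found in many tight epithelia, had a log2 difference of 0.58 (adjusted p = 0.277) in perinates and -0.26 (adjusted p = 0.6, or 0.038 with the replicate number as a block) in adults. Mettl27, between the claudins, differed by 0.30 in perinates (adjusted p = 0.12) and by 0.45 in adults (adjusted p = 0.013). Tmem270 differed by 0.07 (adjusted p = 0.669) and -0.07 (adjusted p = 0.598).

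Cldn10, which forms ion-selective pores, and Cldn18, known from stomach and lung epithelium, were both higher in WT GFP+ cells than in GFP- cells and in KO cells. Both passed the filter only on WT GFP+ arrays, so the direction of these differences is partly fixed by the filter. The comparisons with GFP- and with KO cells also use the same WT GFP+ arrays and are not independent. Cldn10 intensities were 55.4, 60.5 and 70.7 in perinate KO cells, against 131, 97.7 and 82.4 in perinate WT GFP+ cells and 75.3 and 46.1 in perinate WT GFP- cells. In adults they were 56.7, 69.0 and 61.6 in adult KO cells, against 134, 111 and 142 in adult WT GFP+ cells and 59.9, 66.3 and 57.7 in adult WT GFP- cells. The adult KO and adult GFP- arrays of Cldn10 lay together, all below every WT GFP+ array. A further Cldn10 probe set, not used in the tests, had 51.2, 55.7 and 63.5 in perinate KO cells, against 109.0, 87.2 and 66.7 in perinate WT GFP+ cells.

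Cldn18 intensities were 74.0, 79.0 and 81.3 in perinate KO cells, against 109, 101 and 86.5 in perinate WT GFP+ cells and 68.8 and 76.2 in perinate WT GFP- cells. In adults they were 68.6, 64.3 and 67.3 in adult KO cells, against 151, 123 and 141 in adult WT GFP+ cells and 68.8, 76.1 and 59.7 in adult WT GFP- cells. Adult WT GFP+ cells held the 3 highest values of all arrays. In KO cells Cldn18 was 1.26-fold lower in perinates (log2 difference -0.33 ± 0.11, adjusted p = 0.04) and 2.06-fold lower in adults (log2 difference -1.04 ± 0.11, adjusted p = 2.8e-06). Cldn10 was 1.65-fold lower in perinates (log2 difference -0.72 ± 0.18, adjusted p = 0.0079) and 2.06-fold lower in adults (log2 difference -1.04 ± 0.18, adjusted p = 0.00042). The perinate call of Cldn10 was lost without perinate WT GFP+ array 5 (-0.54, adjusted p = 0.051), without both KO arrays 2 and 3 (-0.88, adjusted p = 0.054) and under quantile normalization (-0.52, adjusted p = 0.054). That of Cldn18 was lost when any of 5 perinate GFP+ arrays (WT 5 and 6, KO 1, 2 and 3) was left out (adjusted p up to 0.161), without both KO arrays 2 and 3 (-0.41, adjusted p = 0.17), with median centring (adjusted p = 0.075) and under quantile normalization (-0.13, adjusted p = 0.433).

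Between WT GFP+ and GFP- cells, Cldn18 differed by 0.44 ± 0.13 in perinates (adjusted p = 0.0097) and 1.02 ± 0.11 in adults (adjusted p = 2.4e-06). Cldn10 differed by 0.79 ± 0.20 (adjusted p = 0.0044) and 1.07 ± 0.18 (adjusted p = 0.00015). The perinate call was lost for Cldn10 without GFP- array 2 (0.44, adjusted p = 0.134) and for Cldn18 without GFP- array 1 (0.37, adjusted p = 0.086). For Cldn18, the KO effect was smaller in perinates than in adults (difference 0.71 ± 0.16, adjusted p = 0.045), a call lost when any of 10 GFP+ arrays was left out (adjusted p up to 0.103) and lost without perinate KO arrays 2 and 3 (adjusted p = 0.243). Cldn18 was also lower in perinate than in adult WT GFP+ cells (-0.48 ± 0.11, adjusted p = 0.0067).

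The annotated starts of Cldn10 and Cldn18 are shown because these claudins fell in KO cells at both ages, and each has a pair of annotated starts. The windows are RefSeq promoters of build GRCm38.p6, 250 bases before to 50 after the start, 5′ to 3′ on the gene's strand. Capitals mark motifs found on either strand among a TATA box (TATAAA), a GC box (GGGCGG), an E-box (CACCTG) and a grainyhead site (AACCGGTT). The upstream Cldn10 window held 36.0% GC, 4 CpG and none of these motifs, while the downstream window held 72.0% GC, 27 CpG and 3 GC boxes. Neither Cldn18 window held any of the motifs.
Cldn10 upstream start, chr14:118787621-118787920, + strand: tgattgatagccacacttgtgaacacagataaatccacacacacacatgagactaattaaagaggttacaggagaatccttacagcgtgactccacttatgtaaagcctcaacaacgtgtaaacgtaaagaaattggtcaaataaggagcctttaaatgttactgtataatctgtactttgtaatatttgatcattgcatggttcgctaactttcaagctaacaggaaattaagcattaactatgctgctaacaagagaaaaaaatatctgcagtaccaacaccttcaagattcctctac
Cldn10 downstream start, chr14:118854700-118854999, + strand: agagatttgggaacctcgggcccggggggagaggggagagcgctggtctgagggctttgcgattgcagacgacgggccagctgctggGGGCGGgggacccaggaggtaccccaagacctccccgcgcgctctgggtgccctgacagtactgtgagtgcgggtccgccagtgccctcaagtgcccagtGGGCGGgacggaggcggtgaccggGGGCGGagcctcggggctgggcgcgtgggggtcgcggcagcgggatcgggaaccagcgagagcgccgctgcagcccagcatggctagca
Cldn18, - strand, chr9:99710014-99710313: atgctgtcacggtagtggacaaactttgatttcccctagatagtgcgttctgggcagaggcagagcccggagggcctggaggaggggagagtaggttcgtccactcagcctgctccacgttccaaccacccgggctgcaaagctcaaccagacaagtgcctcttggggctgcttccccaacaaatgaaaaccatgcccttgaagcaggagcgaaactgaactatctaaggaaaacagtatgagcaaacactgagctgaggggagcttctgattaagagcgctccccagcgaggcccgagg
Cldn18, - strand, chr9:99717218-99717517: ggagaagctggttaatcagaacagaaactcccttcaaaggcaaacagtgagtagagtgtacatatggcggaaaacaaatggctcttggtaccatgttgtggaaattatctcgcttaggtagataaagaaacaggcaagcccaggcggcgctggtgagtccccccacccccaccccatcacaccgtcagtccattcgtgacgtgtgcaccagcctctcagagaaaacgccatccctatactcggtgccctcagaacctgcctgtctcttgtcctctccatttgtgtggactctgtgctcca
Among all 32851 promoters of the table, 35.658% held a GC box, 20.212% the E-box, 13.616% the TATA box and 0.146% the grainyhead letters. The median promoter had 52.7% GC and 7 CpG.

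Further claudins lower in KO cells were Cldn6, Cldn19 and Cldn20. In perinates 5 of 17 tested claudins were called lower (Cldn6, Cldn10, Cldn18, Cldn19 and Cldn20), where 13.0% of all genes were, and in adults 4 of 17 (Cldn7, Cldn10, Cldn18 and Cldn20), where 10.8% were. Cldn10, Cldn18 and Cldn19 entered the test only through WT GFP+ arrays and Cldn20 almost only so, which partly fixes these counts. Cldn6 and Cldn7 were the called claudins with KO arrays above the filter. Cldn6, a claudin of embryonic epithelium, had 104, 116 and 98.9 in perinate KO cells, against 178, 155 and 212 in perinate WT GFP+ cells (log2 difference -0.76 ± 0.14, adjusted p = 0.00056). These groups did not overlap. Adult KO arrays also lay below the WT arrays, without a call, at 138, 138 and 139 in adult KO cells against 212, 158 and 159.5 in adult WT GFP+ cells (log2 difference -0.34 ± 0.14, adjusted p = 0.093).

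Cldn19, known from the kidney, the retinal pigment epithelium and Schwann cells, was called lower in perinate KO cells. Its intensities were 79.0, 83.4 and 81.5 in perinate KO cells, against 116, 111 and 129.6 in perinate WT GFP+ cells and 88.6 and 100.3 in perinate WT GFP- cells (log2 difference -0.55 ± 0.12, adjusted p = 0.0039). In adults they were 73.6, 83.7 and 91.0 in adult KO cells, against 90.4, 111 and 89.9 in adult WT GFP+ cells and 94.4, 95.7 and 73.8 in adult WT GFP- cells (KO against WT GFP+, -0.23, adjusted p = 0.212), and the difference of the KO effect between the ages was -0.32 (adjusted p = 0.367). Cldn20 was lower in KO cells at both ages without overlap: 79.7, 73.2 and 87.8 in perinate KO cells against 126, 106 and 123 in perinate WT GFP+ cells (log2 difference -0.56 ± 0.14, adjusted p = 0.0091), and 66.0, 82.2 and 85.6 in adult KO cells against 126, 126 and 103 in adult WT GFP+ cells (log2 difference -0.61 ± 0.14, adjusted p = 0.0061). Its GFP- cells had 80.5 and 113 in perinates and 91.1, 103 and 81.4 in adults. Without perinate KO arrays 2 and 3, the perinate adjusted p was 0.07 for Cldn19 and 0.123 for Cldn20, and under quantile normalization Cldn20 differed by -0.38 (adjusted p = 0.059).

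**Figure D2:**
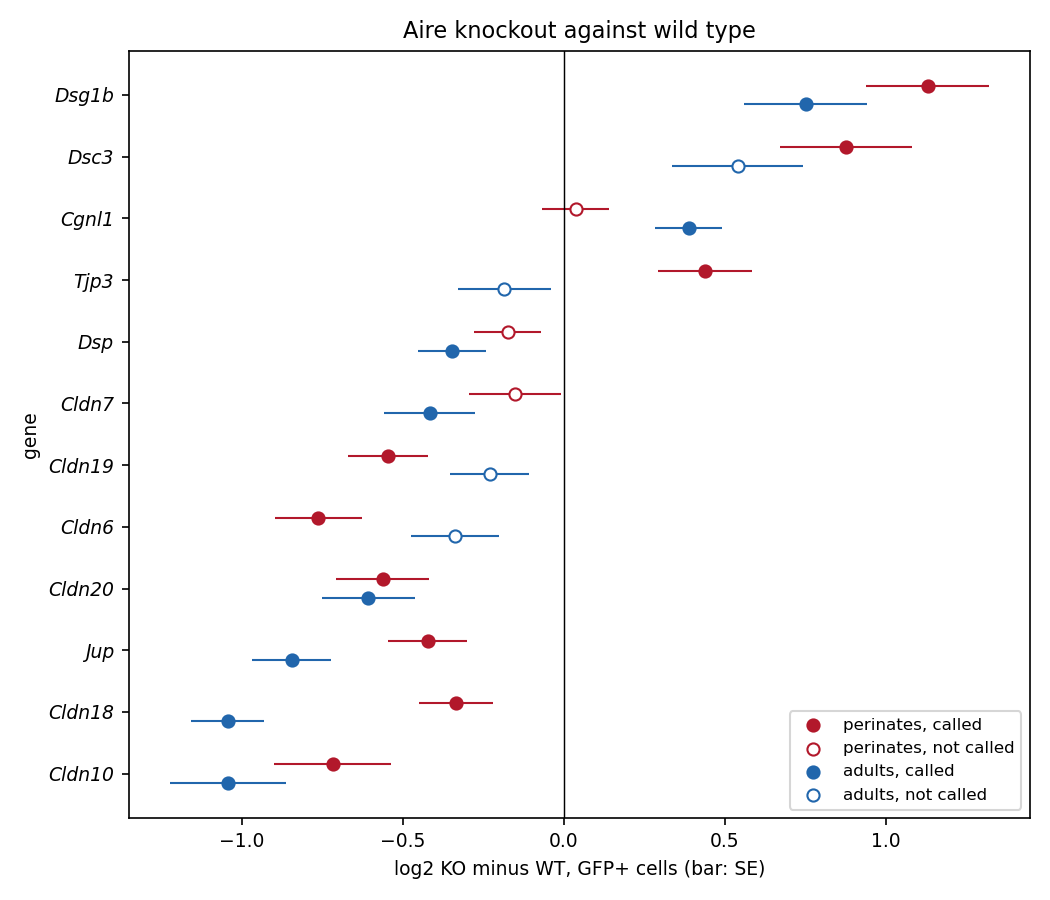
Log2 difference of KO against WT GFP+ cells with its standard error for the 12 junction genes called at either age, with perinates in red above adults in blue and open points for differences not called. Dsg1b is the highest point at both ages (1.13 and 0.75), and Cldn18 (-1.04) and Cldn10 (-1.04) are the lowest in adults.

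Several marker lists moved with the KO comparison. The summed intensity of 9 keratinocyte differentiation markers was 705 to 995 in perinate KO cells, against 1754 to 2596 in perinate WT GFP+ cells. In adults it was 851 to 1427 in KO cells, against 2181 to 2672 in WT GFP+ cells. Spink5 (292.6 against 204.0) and Calm4 (96.96 against 83.51) averaged higher in adult KO cells, and the other listed keratinocyte markers lower. The sum of 9 intestinal and liver epithelial markers was 1233 to 1588 in perinate KO cells, against 3381 to 4090 in perinate WT GFP+ cells, and 1974 to 2623 in adult KO cells, against 5982 to 7376 in adult WT GFP+ cells. Of 8 tested dendritic cell and macrophage markers, 5 were lower and 1 was higher in perinate KO than WT GFP+ cells (median -0.78), and 6 were lower and 1 higher in adults (median -0.57), although their sums overlapped: 1749 to 2112 in perinate KO and 1751 to 1792 in perinate WT GFP+ cells, and 1929 to 2406 in adult KO and 2170.0 to 2335 in adult WT GFP+ cells. Of 8 fibroblast markers, 2 were higher and 4 lower in perinates and 2 higher and 3 lower in adults. Their summed intensity was 6050.0 to 6242 in perinate KO and 5630.0 to 6309 in perinate WT GFP+ cells, and 4873 to 5353 in adult KO and 4054 to 4614 in adult WT GFP+ cells. The part of these lists in the claudin differences was not tested, and fewer cells of a type cannot be told apart from less RNA per cell in these bulk samples. Cldn5, known from endothelium, was called nowhere. Of 9 endothelial markers, Cdh5, Flt1 and Egfl7 lay above the filter on all 17 arrays, Pecam1 on 14, Tek on 11 and Plvap on 10, and Kdr, Tie1 and Emcn on 0, and their sum was 872 to 1578 over all arrays.

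Cldn7, Cldn3 and Cldn4, claudins of many simple epithelia, were lower in perinate than in adult GFP- cells. Cldn7, whose protein binds EpCAM, read 539.9, 655 and 562 in perinate KO cells, against 744, 649 and 564 in perinate WT GFP+ cells and 272 and 186 in perinate WT GFP- cells. Adult values were 746, 698 and 758 in adult KO cells, against 1085, 947 and 914 in adult WT GFP+ cells and 853, 854 and 709.6 in adult WT GFP- cells. The 2 perinate GFP- arrays were the lowest of all 17. Cldn7 was 3.56-fold lower in perinate than in adult GFP- cells (log2 difference -1.83 ± 0.16, adjusted p = 1.2e-07), and 2.88-fold higher in GFP+ than in GFP- cells of perinates (log2 difference 1.52 ± 0.16, adjusted p = 7.7e-07).

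In adults the GFP+ to GFP- difference of Cldn7 was 0.29 (adjusted p = 0.111, or 0.031 with the replicate number as a block), and the ages differed by 1.24 ± 0.21 (adjusted p = 0.00061). Perinate WT GFP+ cells were also below adult WT GFP+ cells (-0.60 ± 0.14, adjusted p = 0.0069). Adult KO cells were 1.34-fold below adult WT GFP+ cells (log2 difference -0.42 ± 0.14, adjusted p = 0.047), a call lost when any of 12 arrays (adjusted p up to 0.16) or both perinate KO arrays 2 and 3 (adjusted p = 0.061) were left out. The adult call was also lost with median centring (adjusted p = 0.071) and with the 60th percentile filter (adjusted p = 0.052). The KO difference in perinates was -0.15 (adjusted p = 0.444).

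Cldn3 intensities were 322, 327 and 404 in perinate KO cells, against 365, 425 and 406 in perinate WT GFP+ cells and 382 and 255 in perinate WT GFP- cells. In adults they were 520.1, 394 and 383 in adult KO cells, against 542, 507 and 451 in adult WT GFP+ cells and 975, 791 and 726 in adult WT GFP- cells. Adult GFP- cells held the 3 highest values. Perinate GFP- cells were 2.64-fold lower than adult GFP- cells (log2 difference -1.40 ± 0.18, adjusted p = 8.4e-06). The GFP+ to GFP- difference of Cldn3 was 0.35 in perinates (adjusted p = 0.128) and -0.72 in adults (adjusted p = 0.0016), and the difference between the ages was called (1.08 ± 0.24, adjusted p = 0.0046).

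Cldn4 varied widely between arrays of the GFP- groups and of adult WT GFP+ cells. It read 972, 989 and 870.2 in perinate KO cells, against 1545, 1708 and 1741 in perinate WT GFP+ cells and 2389 and 518 in perinate WT GFP- cells. In adults the arrays gave 1825, 1494 and 1656 in adult KO cells, against 3083, 1996 and 1711 in adult WT GFP+ cells and 3632, 2331 and 2113 in adult WT GFP- cells. The 3 perinate KO arrays lay below all perinate WT GFP+ arrays, while the perinate GFP- arrays enclosed both groups. In each numbered pair of adult arrays, GFP+ cells read less than GFP- cells, a difference of -0.26 that was called with the number as a block (adjusted p = 0.038) and not without it (adjusted p = 0.6). The lower level in perinate than in adult GFP- cells (log2 difference -1.23 ± 0.41, adjusted p = 0.022) was lost without perinate GFP- array 2 (-0.13, adjusted p = 0.749) or adult GFP- array 6 (-1.0, adjusted p = 0.082). In KO against WT GFP+ cells Cldn4 differed by -0.82 in perinates (adjusted p = 0.11) and -0.41 in adults (adjusted p = 0.483).

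Cldn8, Cldn12 and Cldn1 were lower in GFP+ than in GFP- cells of perinates. Cldn8, a barrier-forming claudin of the distal nephron, read 63.4, 48.4 and 51.0 in perinate KO cells, against 82.9, 63.3 and 54.0 in perinate WT GFP+ cells and 294 and 220.1 in perinate WT GFP- cells. The adult intensities were 38.5, 36.8 and 39.7 in adult KO cells, against 35.2, 41.2 and 45.6 in adult WT GFP+ cells and 65.7, 82.0 and 76.5 in adult WT GFP- cells. The 2 perinate GFP- arrays stood above all others and were the only ones above the filter. Differences of Cldn8 among adult arrays or among GFP+ arrays thus lie wholly below the filter. Its other differences are set against a level near background and are partly fixed by the filter. GFP+ cells were 3.87-fold lower in perinates (log2 difference -1.95 ± 0.18, adjusted p = 1.9e-07) and 1.84-fold lower in adults (log2 difference -0.88 ± 0.16, adjusted p = 0.00028), with a difference between the ages of -1.07 ± 0.24 (adjusted p = 0.0044). Perinates were above adults in GFP- cells (log2 difference 1.77 ± 0.18, adjusted p = 6.0e-07), in WT GFP+ cells (0.70, adjusted p = 0.0054) and in KO cells (0.49, adjusted p = 0.031). The last call was lost without any of adult KO arrays 1, 2 and 3 or perinate KO arrays 1 and 3 (adjusted p up to 0.14).

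Cldn12, a claudin that lacks the usual PDZ-binding tail, read 165, 143 and 129 in perinate KO cells, against 133, 165 and 141 in perinate WT GFP+ cells and 392 and 319 in perinate WT GFP- cells. On adult arrays it had 139, 122 and 149 in adult KO cells, against 161, 140.3 and 140.0 in adult WT GFP+ cells and 157, 187 and 189 in adult WT GFP- cells. Only the perinate GFP- arrays stood apart, by 2.43-fold from perinate GFP+ cells (log2 difference -1.28 ± 0.14, adjusted p = 1.9e-06) and 2.00-fold from adult GFP- cells (log2 difference 1.00 ± 0.14, adjusted p = 2.8e-05). The adult GFP+ to GFP- difference was -0.27 (adjusted p = 0.105), and the ages differed by -1.01 ± 0.19 (adjusted p = 0.0014).

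Cldn1, the claudin of the epidermal barrier, read 496, 445 and 407 in perinate KO cells, against 525, 709 and 755 in perinate WT GFP+ cells and 1657 and 1295 in perinate WT GFP- cells. Adult values were 763, 639.7 and 615 in adult KO cells, against 994, 464 and 636 in adult WT GFP+ cells and 2079.5, 1067 and 1489 in adult WT GFP- cells. GFP+ arrays were below GFP- arrays in each age. The GFP+ to GFP- difference was -1.16 ± 0.28 in perinates (adjusted p = 0.0026) and -1.16 ± 0.25 in adults (adjusted p = 0.0011), and their difference of 0.00 ± 0.37 was not called (adjusted p = 0.997).

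**Figure D3:**
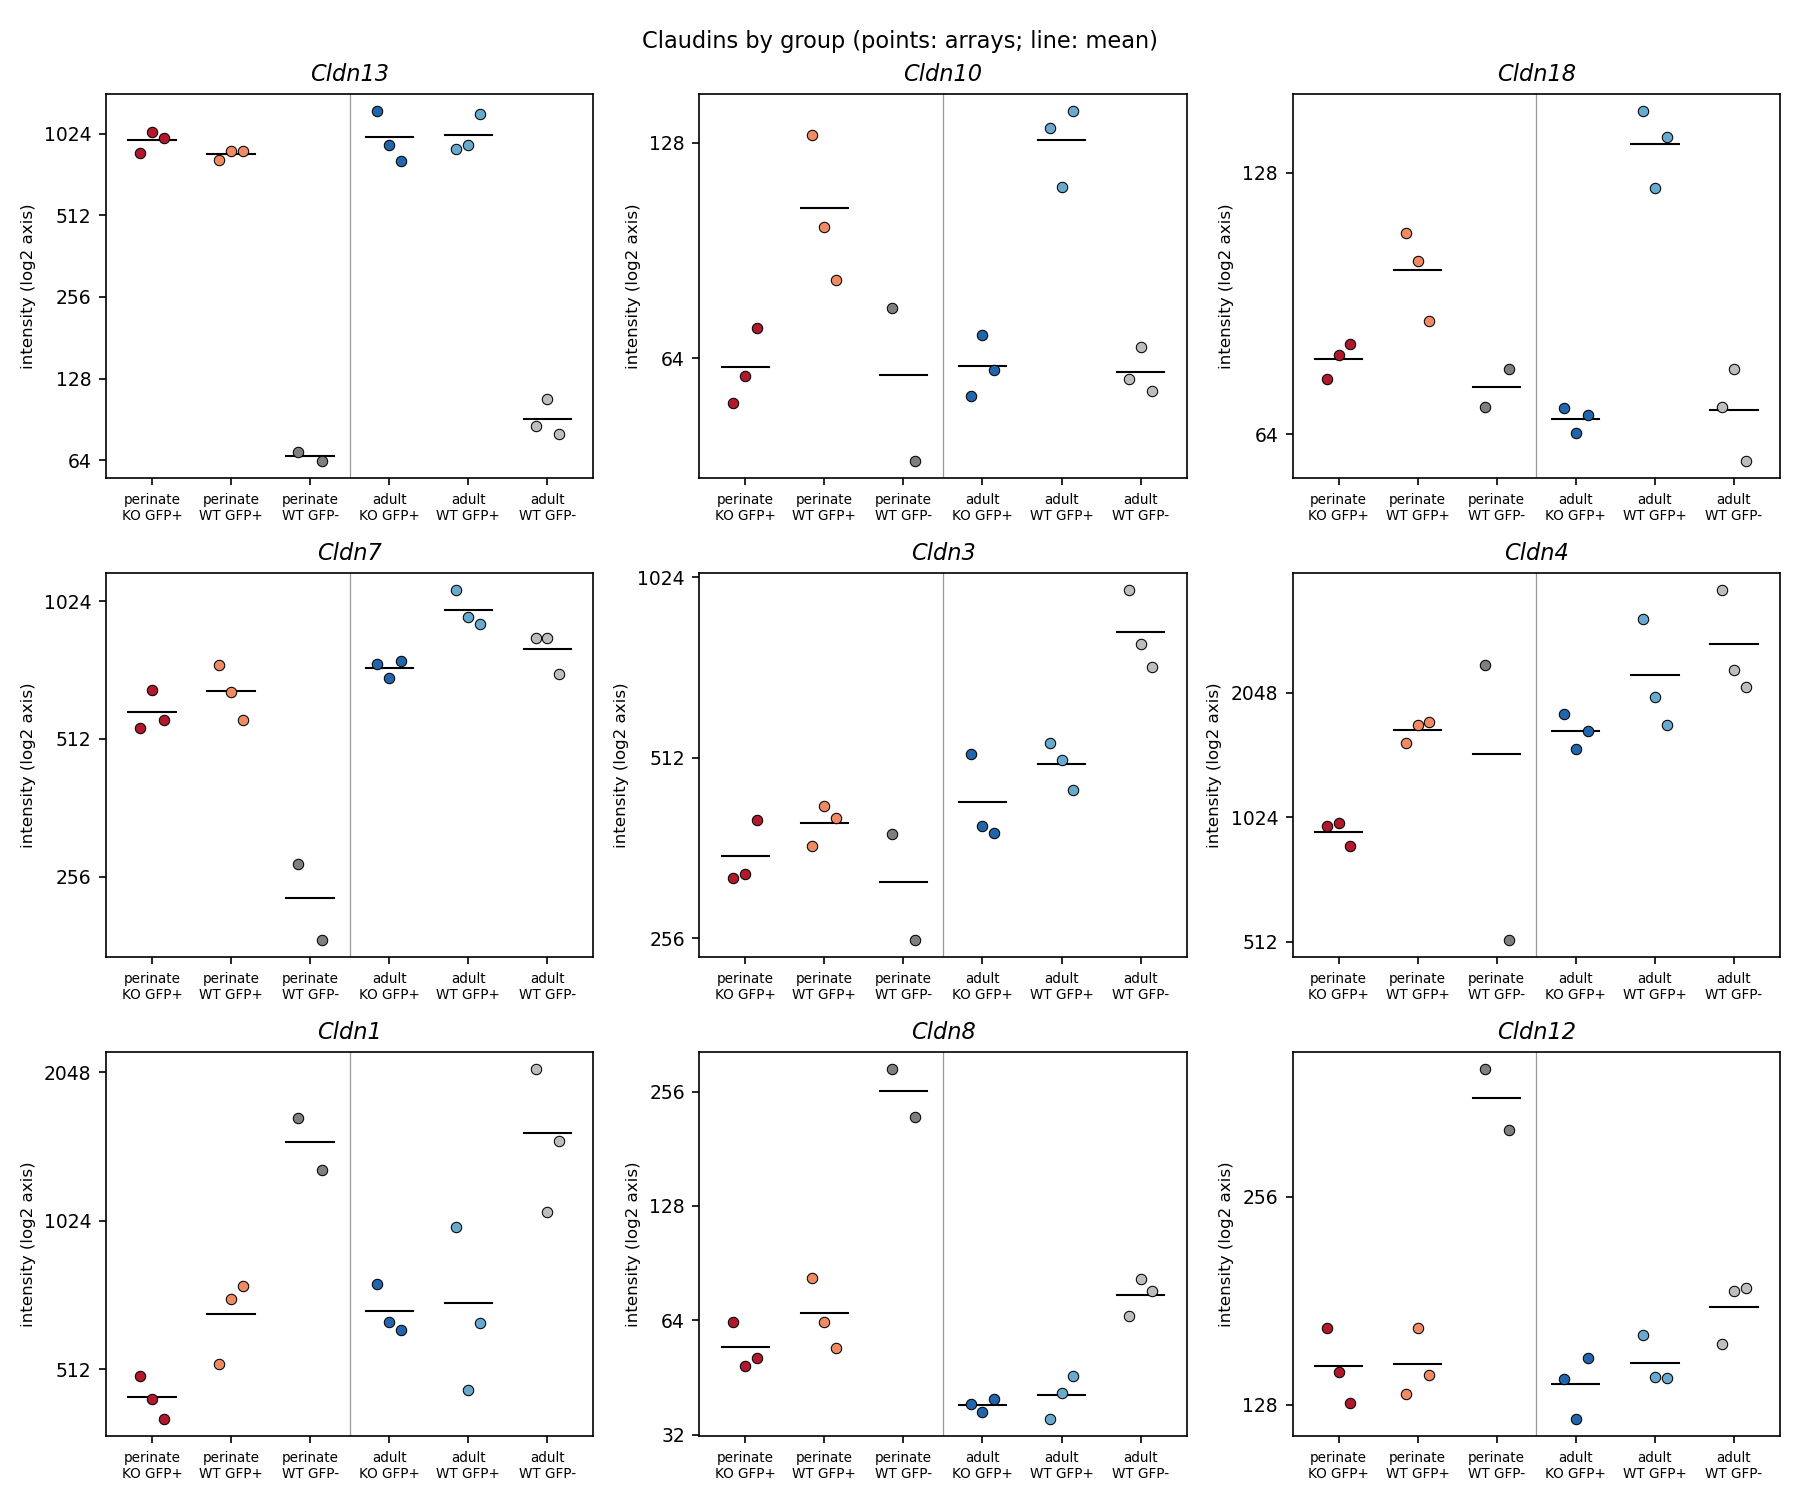
Intensity of the claudins described here on each array (points, log2 axis) with the group mean (line), perinate groups left of the rule and adult groups right of it. Cldn13 separates GFP+ from GFP- cells at both ages, Cldn10 and Cldn18 are high in WT GFP+ cells, and Cldn8 and Cldn12 are highest in perinate GFP- cells.

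Among tight junction plaque and MARVEL proteins, 6 of 7 were lower in perinate than in adult GFP- cells, and all 7 differences were negative, where 24.2% of all genes were called lower and 46.4% in either direction. The median of the 7 differences was -0.95, against 0.02 over all genes. Tjp3 (ZO-3), a scaffold that binds claudin tails, read 629, 881 and 900.2 in perinate KO cells, against 543, 612 and 602 in perinate WT GFP+ cells and 298 and 245 in perinate WT GFP- cells. In adults the arrays gave 963, 791 and 735 in adult KO cells, against 859, 937 and 1022 in adult WT GFP+ cells and 1029.6, 1269 and 1125 in adult WT GFP- cells. Tjp3 was 4.21-fold lower in perinate than in adult GFP- cells (log2 difference -2.07 ± 0.16, adjusted p = 4.2e-08), with no overlap.

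GFP+ cells of perinates were 2.17-fold above GFP- cells for Tjp3 (log2 difference 1.11 ± 0.16, adjusted p = 2.9e-05), while adults differed by -0.28 (adjusted p = 0.128, or 0.04 with the block). The ages differed in this ratio by 1.39 ± 0.22 (adjusted p = 0.00028). Perinate WT GFP+ cells were also below adult WT GFP+ cells (-0.68, adjusted p = 0.0033). The higher level in perinate KO than WT GFP+ cells (log2 difference 0.44 ± 0.14, adjusted p = 0.034) was lost without perinate KO array 2 (0.36, adjusted p = 0.136) or 3 (0.35, adjusted p = 0.143), without WT array 5 or 7, and under quantile normalization (adjusted p = 0.095). Without both KO arrays 2 and 3 it was 0.10 (adjusted p = 0.782).

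Marveld2 (tricellulin), which seals the points where 3 cells meet, read 291, 317 and 313 in perinate KO cells, against 331, 277 and 310.0 in perinate WT GFP+ cells and 171 and 116 in perinate WT GFP- cells. The adult intensities were 586, 681 and 515 in adult KO cells, against 489.9, 429.6 and 502 in adult WT GFP+ cells and 326, 288 and 299 in adult WT GFP- cells. GFP+ cells were above GFP- cells in perinates (log2 difference 1.11 ± 0.15, adjusted p = 1.6e-05) and in adults (log2 difference 0.64 ± 0.14, adjusted p = 0.0011). Perinates were below adults in GFP- cells (-1.11, adjusted p = 1.7e-05), in WT GFP+ cells (-0.63, adjusted p = 0.0036) and in KO cells (-0.94, adjusted p = 0.00013). In none of the 3 populations did the ages overlap.

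Ocln (occludin) adjoins Marveld2 in the gene order, and read 547, 676 and 538 in perinate KO cells, against 748, 668 and 616 in perinate WT GFP+ cells and 513 and 182 in perinate WT GFP- cells. On adult arrays it had 807, 842 and 878 in adult KO cells, against 819.8, 461 and 555 in adult WT GFP+ cells and 862, 477 and 498 in adult WT GFP- cells. Arrays of the GFP- groups lay far apart. The GFP+ to GFP- difference of perinates (log2 difference 1.15 ± 0.33, adjusted p = 0.01) was lost without perinate GFP- array 2 (0.40, adjusted p = 0.334), and the lower level in perinate GFP- cells (log2 difference -0.95 ± 0.33, adjusted p = 0.027) was lost without it (-0.20, adjusted p = 0.633) or without adult GFP- array 6 (-0.67, adjusted p = 0.116). The age call in GFP- cells was also lost with array weights (adjusted p = 0.079). In adults GFP+ and GFP- cells differed by 0.01 (adjusted p = 0.981).

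Cingulin (Cgn), Marveld3 and Tjp1 (ZO-1) made up the other 3 that were lower in perinate GFP- cells. Cgn averaged 149 ± 19.5 in perinate GFP- cells and 295 ± 82.1 in adult GFP- cells (SD, n = 2 and 3; log2 difference -0.95 ± 0.21, adjusted p = 0.0017). Marveld3 differed by -0.61 (adjusted p = 0.0023), a call lost without perinate GFP- array 2 (-0.37, adjusted p = 0.074). Tjp1 differed by -0.27 (adjusted p = 0.046), lost when any of 12 arrays (adjusted p up to 0.27) or both perinate KO arrays 2 and 3 (adjusted p = 0.069) were left out. The Tjp1 call was also lost with no filter (adjusted p = 0.051), with median centring (adjusted p = 0.069) and with array weights (adjusted p = 0.12). Cgnl1 (paracingulin) was higher in adult KO than adult WT GFP+ cells (log2 difference 0.39 ± 0.10, adjusted p = 0.014), a call lost without adult WT GFP+ array 8 (adjusted p = 0.056) or adult KO array 2 (adjusted p = 0.087).

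The promoters of Cldn4, Cldn7 and Tjp3 are shown because these genes were lower in perinate GFP- cells and their windows hold the E-box letters in capitals. Other capitals mark GC boxes. Of the 13 members lower in perinate than in adult GFP- cells, 8 had a promoter in the table and 6 held the E-box (Cldn3, Cldn4, Cldn7, Marveld2, Ocln and Tjp3). Of members higher there, 1 of 2 held it (Pkp4), and of members not called, 3 of 12 (Cldn6, Cldn14 and Dsp). None of the 6 untested members with a promoter did. A gene counts here if any of its annotated starts holds the letters, while the 20.212% given above is a share of single promoters. Over all members with a promoter, 10 of 28 held the E-box, and no share by gene over all genes was computed. These are matches of letters and were not tested. The age calls of Cldn4 and Ocln were lost without perinate GFP- array 2 or without adult GFP- array 6, and that of Ocln also with array weights.
Cldn4, - strand, chr5:134946885-134947184: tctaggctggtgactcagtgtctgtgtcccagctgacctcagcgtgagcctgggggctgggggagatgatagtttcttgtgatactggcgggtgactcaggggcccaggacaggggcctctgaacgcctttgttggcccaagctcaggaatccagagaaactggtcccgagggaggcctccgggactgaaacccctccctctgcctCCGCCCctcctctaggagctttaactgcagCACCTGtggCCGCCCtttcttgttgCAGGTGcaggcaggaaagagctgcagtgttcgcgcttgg
Cldn7, + strand, chr11:69965171-69965470: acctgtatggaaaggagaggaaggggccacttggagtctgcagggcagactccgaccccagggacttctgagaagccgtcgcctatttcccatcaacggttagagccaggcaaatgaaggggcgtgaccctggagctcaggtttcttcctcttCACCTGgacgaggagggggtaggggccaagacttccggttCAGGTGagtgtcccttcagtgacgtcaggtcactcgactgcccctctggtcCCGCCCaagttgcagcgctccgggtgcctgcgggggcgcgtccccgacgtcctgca
Tjp3, - strand, chr10:81291218-81291517: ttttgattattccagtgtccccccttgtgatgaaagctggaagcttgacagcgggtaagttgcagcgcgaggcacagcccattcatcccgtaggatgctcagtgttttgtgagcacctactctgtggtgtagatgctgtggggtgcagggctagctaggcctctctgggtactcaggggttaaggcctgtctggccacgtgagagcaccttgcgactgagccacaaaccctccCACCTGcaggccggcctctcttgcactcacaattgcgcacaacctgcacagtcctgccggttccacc
The Cldn4 window holds 2 E-boxes and 2 GC boxes, the Cldn7 window 2 E-boxes and 1 GC box, and the Tjp3 window 1 E-box. Another annotated start of Cldn7 held no motif.

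Among the desmosomal cadherins, all 5 that were tested differed between GFP+ and GFP- cells at each age, Dsg1b and Dsg2 being higher and Dsc2, Dsc3 and Dsg3 lower in GFP+ cells. Of all genes, 43.5% were called in perinates and 44.9% in adults. Dsc3, a desmocollin of stratified epithelia, read 359.8, 419 and 403 in perinate KO cells, against 166, 309 and 191 in perinate WT GFP+ cells and 2426 and 2479 in perinate WT GFP- cells. Adult values were 1374, 1544 and 964 in adult KO cells, against 876, 833 and 911 in adult WT GFP+ cells and 1512, 1343 and 1997 in adult WT GFP- cells. Perinate WT GFP+ cells held the 3 lowest values of all arrays and perinate GFP- cells the 2 highest. GFP+ cells were 11.5-fold lower than GFP- cells in perinates (log2 difference -3.52 ± 0.23, adjusted p = 4.6e-09) and 1.83-fold lower in adults (log2 difference -0.87 ± 0.20, adjusted p = 0.0024), and the ages differed by -2.65 ± 0.31 (adjusted p = 2.2e-05).

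Perinate WT GFP+ cells were 4.08-fold below adult WT GFP+ cells in Dsc3 (log2 difference -2.03 ± 0.20, adjusted p = 8.6e-06), and perinate KO cells 3.23-fold below adult KO cells (log2 difference -1.69 ± 0.20, adjusted p = 2.7e-05). GFP- cells ran the other way, with perinates 1.54-fold higher (log2 difference 0.62 ± 0.23, adjusted p = 0.035), a call lost when any of adult GFP- arrays 6 and 7 or perinate GFP- arrays 1 and 2 was left out (adjusted p up to 0.122). KO cells were 1.84-fold above WT GFP+ cells in perinates (log2 difference 0.88 ± 0.20, adjusted p = 0.0048) without overlap, and 0.75 (adjusted p = 0.159) without KO arrays 2 and 3. In adults the KO difference was 0.54 (adjusted p = 0.076).

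Dsg1b, of the desmoglein 1 genes of the upper epidermis, was higher in KO than in WT GFP+ cells at both ages. It read 722, 651 and 689.6 in perinate KO cells, against 299, 406 and 255 in perinate WT GFP+ cells and 77.7 and 132 in perinate WT GFP- cells. In adults the arrays gave 592, 738 and 563 in adult KO cells, against 348, 399 and 372 in adult WT GFP+ cells and 151, 159 and 207 in adult WT GFP- cells. The KO, WT GFP+ and GFP- groups did not overlap, and KO cells were the highest. The KO difference was 1.13 ± 0.19 in perinates (adjusted p = 0.00034), with adjusted p = 0.015 without KO arrays 2 and 3, and 0.75 ± 0.19 in adults (adjusted p = 0.0093), a call lost without adult KO array 2 (0.63, adjusted p = 0.059).

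GFP+ cells exceeded GFP- cells in Dsg1b by 3.10-fold in perinates (log2 difference 1.63 ± 0.21, adjusted p = 9.2e-06) and 2.18-fold in adults (log2 difference 1.12 ± 0.19, adjusted p = 0.00015). The lower level in perinate than in adult GFP- cells (-0.76, adjusted p = 0.0078) was lost without perinate GFP- array 1 (adjusted p = 0.207). Dsg1b has close paralogues, and another probe set of the array is annotated to Dsg1b, Dsg1c and Dsg1a together, so its signal may include a paralogue. Dsg1c itself lay below the filter on all arrays.

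Dsg3, the desmoglein of the basal epidermis, read 194, 126 and 124 in perinate KO cells, against 97.4, 219 and 107 in perinate WT GFP+ cells and 488 and 184 in perinate WT GFP- cells. The adult intensities were 76.9, 71.8 and 63.4 in adult KO cells, against 71.1, 54.9 and 62.3 in adult WT GFP+ cells and 272, 143 and 172 in adult WT GFP- cells. No adult GFP+ array and only 1 perinate WT GFP+ array lay above the filter for Dsg3. Ratios against these groups are thus set against a level near background. GFP+ cells of adults were below GFP- cells without overlap (log2 difference -1.60 ± 0.33, adjusted p = 0.00096), whereas in perinates the groups overlapped (log2 difference -1.19 ± 0.37, adjusted p = 0.016). The perinate call was lost without GFP- array 1 (-0.49, adjusted p = 0.355), WT GFP+ array 5 (adjusted p = 0.067) or array 7 (adjusted p = 0.055). Perinates were above adults in WT GFP+ cells (1.07 ± 0.33, adjusted p = 0.03), lost without perinate array 6 (0.71, adjusted p = 0.136) or adult arrays 7 or 8. The same was found in KO cells (1.04 ± 0.33, adjusted p = 0.031), lost without any adult KO array or perinate KO array 1 (adjusted p up to 0.13), and without both perinate KO arrays 2 and 3 (1.46, adjusted p = 0.058).

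Among members not described above, Cldn9 was lower in GFP+ than in GFP- cells of adults (-0.78 ± 0.19, adjusted p = 0.0035), and Pkp2, the plakophilin of simple epithelia and heart, was lower in perinate than in adult KO cells (-0.90 ± 0.22, adjusted p = 0.0072), or adjusted p = 0.163 without perinate KO arrays 2 and 3.

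Dsc2 and Dsg2 are the desmosomal cadherins found in simple epithelia as well. Dsc2 read 1001, 846 and 880.3 in perinate KO cells, against 864, 1043 and 705 in perinate WT GFP+ cells and 1537 and 1496 in perinate WT GFP- cells. On adult arrays it had 559.7, 635 and 460.4 in adult KO cells, against 596, 482 and 518 in adult WT GFP+ cells and 853, 765 and 941 in adult WT GFP- cells. Dsc2 was lower in GFP+ than in GFP- cells in perinates (-0.82 ± 0.16, adjusted p = 0.00063) and adults (-0.68 ± 0.15, adjusted p = 0.0012). It was higher in perinates than in adults in all 3 populations, by 0.73 in KO, 0.70 in WT GFP+ and 0.83 in WT GFP- cells (adjusted p = 0.0018, 0.003 and 0.00051).

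Dsg2 ran the other way, with 2214, 1837 and 1917 in perinate KO cells, against 2008, 2277 and 1423 in perinate WT GFP+ cells and 1135 and 1384 in perinate WT GFP- cells. Adult values were 2135, 2102 and 2227 in adult KO cells, against 1932, 1733 and 1800.2 in adult WT GFP+ cells and 1292, 1278 and 1469 in adult WT GFP- cells. The GFP+ to GFP- difference was 0.57 in perinates (adjusted p = 0.0076) and 0.44 in adults (adjusted p = 0.019). The perinate call was lost without GFP- array 1 (adjusted p = 0.1), and the adult call without GFP- arrays 6 or 7, WT GFP+ array 6, or under quantile normalization (adjusted p up to 0.066). The desmosomal cadherin genes lie together in the genome, in the order Dsc3, Dsc2, Dsg1c, Dsg1b, Dsg4, Dsg3 and Dsg2 with genes not analysed here between them, and the neighbours Dsc3 and Dsc2 differed in opposite directions with age in GFP+ cells.

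**Figure D4:**
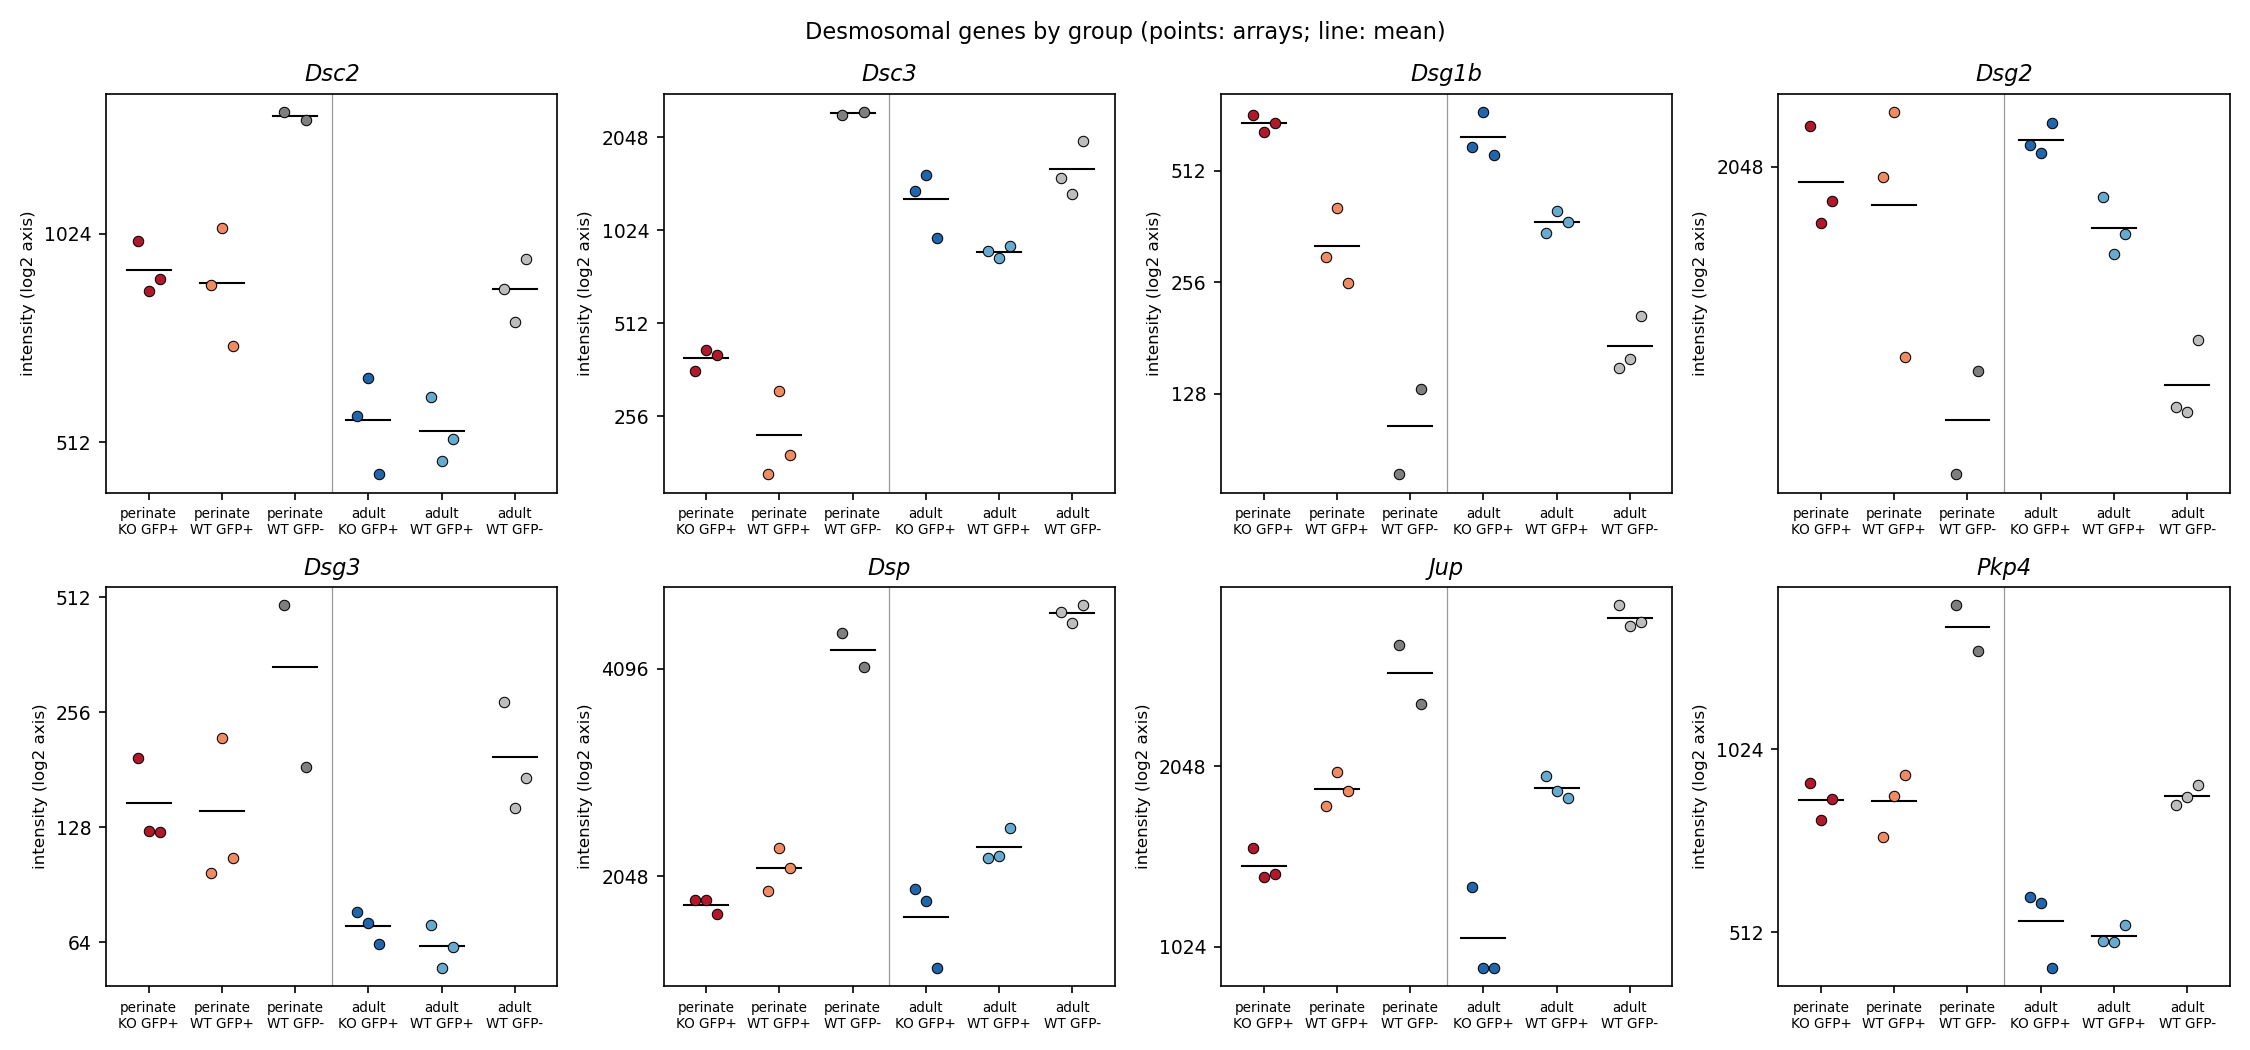
Intensity of desmosomal genes on each array (points, log2 axis) with the group mean (line), perinate groups left of the rule and adult groups right of it. Dsg1b falls in the order KO, WT GFP+, WT GFP- at each age, Dsc3 is lowest in perinate WT GFP+ cells, and Dsp, Jup and Pkp4 are highest in GFP- cells at each age.

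Of the 6 desmosomal plaque genes, 4 were lower in GFP+ than in GFP- cells in perinates and 4 in adults, and all 6 differences were negative at each age. Of all genes, 20.5% were lower in perinates and 20.1% in adults. The 4 were Dsp, Jup, Pkp3 and Pkp4. Dsp (desmoplakin), which anchors keratin filaments, read 1889.7, 1892 and 1804 in perinate KO cells, against 1952, 2254 and 2106 in perinate WT GFP+ cells and 4608 and 4114 in perinate WT GFP- cells. In adults the arrays gave 1962, 1886 and 1509 in adult KO cells, against 2177, 2189 and 2409 in adult WT GFP+ cells and 4946, 4777 and 5063 in adult WT GFP- cells. Every GFP+ array lay below every GFP- array. The ratio was 2.07-fold in perinates (log2 difference -1.05 ± 0.12, adjusted p = 1.7e-06) and 2.18-fold in adults (log2 difference -1.13 ± 0.10, adjusted p = 3.7e-07), and the difference between the ages was not called (0.08 ± 0.16, adjusted p = 0.789).

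Jup (plakoglobin), the link between cadherin and desmoplakin, read 1497, 1340.4 and 1355 in perinate KO cells, against 1755, 2006 and 1860.3 in perinate WT GFP+ cells and 3261 and 2604 in perinate WT GFP- cells. The adult intensities were 1287, 944 and 945 in adult KO cells, against 1972, 1864 and 1812 in adult WT GFP+ cells and 3799, 3501 and 3558 in adult WT GFP- cells. The order was KO below WT GFP+ below GFP- at each age, with no overlap. KO cells were 1.34-fold below WT GFP+ cells in perinates (log2 difference -0.42 ± 0.12, adjusted p = 0.018) and 1.80-fold below in adults (log2 difference -0.85 ± 0.12, adjusted p = 7.0e-05). The perinate call was lost without perinate WT GFP+ array 6 (adjusted p = 0.056) or KO array 2 or 3 (adjusted p = 0.068 and 0.061) or both (-0.32, adjusted p = 0.322), and the adult call was kept under every alternative (adjusted p up to 0.00078). The adult Dsp difference between KO and WT GFP+ cells (log2 difference -0.35 ± 0.10, adjusted p = 0.027) was lost without adult KO array 3 (-0.23, adjusted p = 0.14) or adult WT GFP+ arrays 7 or 8.

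GFP+ cells had less Jup than GFP- cells in perinates (-0.64 ± 0.14, adjusted p = 0.0011) and in adults (-0.94 ± 0.12, adjusted p = 1.1e-05). Pkp4, a plakophilin of desmosomes and adherens junctions, read 902, 782 and 848 in perinate KO cells, against 736, 858 and 927 in perinate WT GFP+ cells and 1766 and 1486 in perinate WT GFP- cells. On adult arrays it had 585, 572 and 448 in adult KO cells, against 495, 494 and 527 in adult WT GFP+ cells and 829, 853 and 895 in adult WT GFP- cells. GFP+ cells were below GFP- cells in perinates (log2 difference -0.95 ± 0.13, adjusted p = 1.9e-05) and adults (log2 difference -0.77 ± 0.12, adjusted p = 6.3e-05), and perinates were above adults in KO (0.67), WT GFP+ (0.73) and WT GFP- cells (0.92), with adjusted p = 0.00074, 0.00045 and 2.8e-05. Pkp1, a plakophilin of the suprabasal epidermis, was lower in perinate than adult WT GFP+ cells (-0.68, adjusted p = 0.015) and GFP- cells (-0.64, adjusted p = 0.019), each call being lost when any of 3 arrays was left out (adjusted p up to 0.077 and 0.097). The Pkp1 age call in GFP- cells was also lost with array weights (adjusted p = 0.084). With the replicate number as a block, Pkp1 was lower in adult GFP+ than in GFP- cells (-0.44, adjusted p = 0.011), a difference not called without the block (adjusted p = 0.062).

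**Figure D5:**
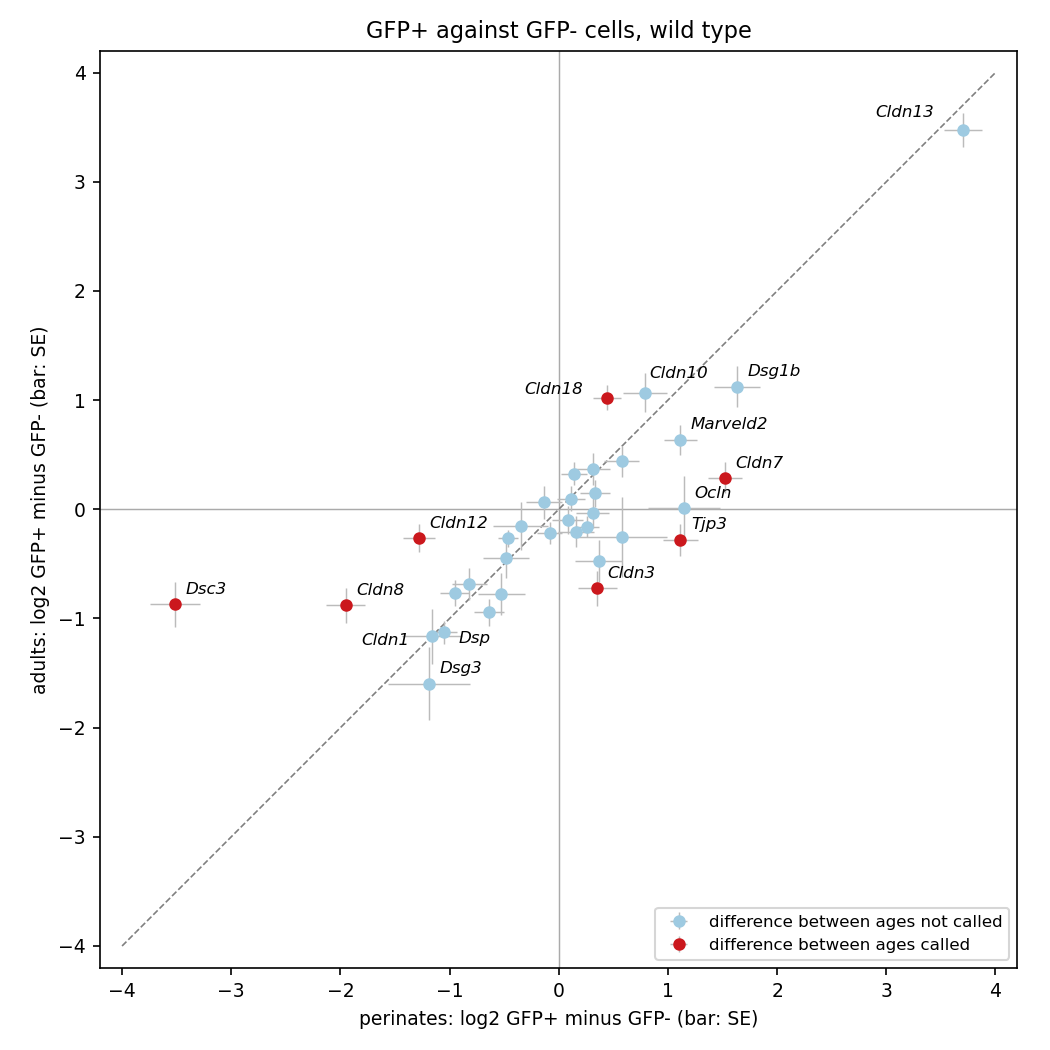
Log2 GFP+ minus GFP- difference of each tested junction gene in perinates (x axis) against adults (y axis), with standard errors as bars and a dashed line of equality. Cldn13 lies high at both ages (3.70 and 3.47), Dsc3 lies far below 0 in perinates (-3.52) and less so in adults (-0.87), and red points are the 7 genes whose difference between the ages was called.

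Markers of other cell types moved with the sort and the age. Keratinocyte differentiation markers summed to 1754 to 2596 in perinate WT GFP+ cells, against 2594 to 3570 in perinate GFP- cells, and to 2181 to 2672 in adult WT GFP+ cells, against 8248 to 12222 in adult GFP- cells. Krt77 (593.6 against 233.6) and Krt1 (162.8 against 146.0) averaged higher in GFP+ cells of perinates, and Lor (171.1 against 132.4) in GFP+ cells of adults. The other listed keratinocyte markers averaged lower in GFP+ cells. The 7 cortical epithelial markers summed to 7158 to 11630 in perinate WT GFP+ cells, against 15215 to 15264 in perinate GFP- cells. In adults they summed to 9486 to 10174 in WT GFP+ cells, against 6921 to 8446 in GFP- cells. Ccl25 made the largest part of the adult sums, averaging 6143 in WT GFP+ and 3208 in GFP- cells, while Ctsl averaged 2060 and 3029. In perinate GFP- cells Prss16 averaged 3192 and Ctsl 8561, against 732.2 and 3765 in perinate WT GFP+ cells and 455.4 and 3029 in adult GFP- cells. Ccl25 ran the other way, at 1428 in perinate GFP- and 4526 in perinate WT GFP+ cells. The 9 intestinal and liver markers summed to 3381 to 4090.0 in perinate WT GFP+ cells, against 1194 to 1641 in perinate GFP- cells, and to 5982 to 7376 in adult WT GFP+ cells, against 6464 to 8140.0 in adult GFP- cells. All 8 of them that were tested were lower in perinate than in adult GFP- cells. Other lists were lower there too. Keratinocyte differentiation markers summed to 2594 to 3570 against 8248 to 12222, although Lor averaged 161.6 against 132.4. Medullary epithelial markers summed to 28521 to 30755 against 36744 to 39155. Among them Krt5 (5358 against 4993) and Krt14 (3371 against 2132) averaged higher in perinates, and the other listed medullary markers lower. Dendritic cell and macrophage markers summed to 1751 to 1792 in perinate WT GFP+ cells, against 809 to 1035 in perinate GFP- cells (7 of 8 higher), and to 2170.0 to 2335 in adult WT GFP+ cells, against 1349 to 1807 in adult GFP- cells (5 of 8 higher). In perinate GFP- cells 6 of those 8 were lower than in adult GFP- cells. Fibroblast markers summed to 5630.0 to 6309 in perinate WT GFP+ cells, against 6820.0 to 6983 in perinate GFP- cells, and to 4054 to 4614 in adult WT GFP+ cells, against 2733 to 3160.0 in adult GFP- cells. The part of these lists in the junction differences was not tested.

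Other junction genes were counted from pathway lists that hold no member, and the counts are to be read against the 43.5% of all genes called between GFP+ and GFP- cells in perinates (higher 23.0%, lower 20.5%) and 44.9% in adults (higher 24.7%, lower 20.1%). The adherens junction genes (7 of 14) and the desmosome partners (5 of 12, or 41.7%) called in perinates were near that background. Of 14 tested adherens junction genes, 1 was higher and 6 were lower in GFP+ than in GFP- cells of perinates, led by Cdh3 (-2.16, adjusted p = 2.0e-06), Vcl (-1.02, adjusted p = 9.8e-05) and Nectin1 (-0.97, adjusted p = 0.00021). In adults 1 was higher and 9 were lower, led by Cdh2 (-1.29, adjusted p = 0.00014), Nectin4 (-1.02, adjusted p = 0.00018) and Cdh1 (-0.54, adjusted p = 0.00022). Cdh1 (E-cadherin), Cdh2 and Cdh3 are classical cadherins, and nectins are immunoglobulin-like adhesion proteins of the same junction. Values in brackets are log2 differences.

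Hemidesmosome genes, which fasten basal cells to laminin, were lower in GFP+ cells in 6 of 8 tested in perinates and 5 of 8 in adults. They were led by Lama3 (-1.55, adjusted p = 5.2e-06) and Lamb3 (-1.28, adjusted p = 0.00028) in perinates and Lama3 (-0.76, adjusted p = 0.0017) in adults. Of 12 desmosome partners, 1 was higher and 4 lower in perinates and 1 higher and 6 lower in adults. The higher one was vimentin in each age, Vim (0.74, adjusted p = 4.4e-05) in perinates and Vim (0.66, adjusted p = 4.9e-05) in adults, and Perp, a desmosomal membrane protein, was among the lower ones: Perp (-0.81, adjusted p = 0.0084) in perinates and Perp (-1.51, adjusted p = 1.7e-05) in adults.

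Tight junction accessory genes split by direction, with 5 of 20 higher and 8 lower in GFP+ cells of perinates, and 3 higher and 7 lower in adults. The scaffold Magi1 was higher, Magi1 (1.44, adjusted p = 4.4e-07) in perinates and Magi1 (0.78, adjusted p = 0.0001) in adults, and Amotl1 was lower in perinates, Amotl1 (-2.24, adjusted p = 1.9e-07). Connexins of gap junctions had 3 of 6 higher and 1 lower in perinates and 2 higher and 1 lower in adults, with Gja1 (1.30, adjusted p = 3.3e-05) and Gja4 (1.45, adjusted p = 0.00014) in adults. Of 16 epithelial transcription factors linked to junction genes, 4 were higher and 4 lower in perinates, and in adults 10 were lower, led by Grhl1 (-1.18, adjusted p = 4.5e-06) and Trp63 (-0.96, adjusted p = 5.5e-05).

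Between KO and WT GFP+ cells, 26.5% of all genes were called in perinates and 19.9% in adults. In perinates 3 adherens junction genes (2 higher), 4 tight junction accessory genes (all higher), 1 hemidesmosome gene (higher), 3 desmosome partners (1 higher), 3 connexins (2 higher) and 5 transcription factors (2 higher) were called. Corneodesmosin, which is built into the desmosomes of the cornified layer, and keratin 19 were lower in KO cells, Cdsn (-1.11, adjusted p = 2.9e-05) and Krt19 (-1.43, adjusted p = 0.00049) in perinates, Cdsn (-0.91, adjusted p = 0.00022) and Krt19 (-1.69, adjusted p = 9.4e-05) in adults. In adults 2 adherens junction genes (higher), 1 hemidesmosome gene (higher), 2 desmosome partners (lower) and 3 transcription factors (1 higher) were called. The transcription factors that were lower in KO cells at both ages included Cdx2 (-0.83, adjusted p = 2.6e-05) and Hnf4a (-0.75, adjusted p = 0.0011) in perinates and Cdx2 (-0.36, adjusted p = 0.025) and Hnf4a (-0.44, adjusted p = 0.04) in adults.

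Between perinate and adult GFP- cells, 11 of 16 transcription factors were called, 3 higher and 8 lower in perinates, where 46.4% of all genes were called. The lower ones included Elf3 and Ehf, factors of simple and glandular epithelium, Elf3 (-1.99, adjusted p = 1.3e-06) and Ehf (-1.87, adjusted p = 1.5e-06), and Snai2 (1.73, adjusted p = 3.1e-05) was among the higher ones. Of 20 tight junction accessory genes 5 were higher and 8 lower, led by Mpdz (1.57, adjusted p = 5.0e-08), Magi3 (-1.07, adjusted p = 8.2e-08) and Ildr1 (-1.58, adjusted p = 1.2e-07), the last of which recruits tricellulin to the junctions of 3 cells. Of 14 adherens junction genes 2 were higher and 4 lower, and 4 of 8 hemidesmosome genes were higher, led by Itgb4 (1.30, adjusted p = 0.00014). Of 6 connexins, 1 was higher and 2 were lower, and 1 of 12 desmosome partners was lower.

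Between the ages in KO cells, where 26.0% of all genes were called, 3 of 12 desmosome partners were higher in perinates, Krt5 (1.31, adjusted p = 0.0054), Perp (0.81, adjusted p = 0.008) and Krt14 (0.85, adjusted p = 0.017). Krt5 and Krt14 are the paired keratins of basal stratified epithelium. Also called in KO cells were 3 adherens junction genes (2 higher), 7 tight junction accessory genes (3 higher), 2 hemidesmosome genes (both higher), 6 transcription factors (4 higher) and 1 connexin (lower). In WT GFP+ cells, where 22.2% of all genes were called, the ages differed in 2 adherens junction genes (1 higher), 7 tight junction accessory genes (5 higher), 1 desmosome partner (higher), 4 transcription factors (3 higher) and 3 connexins (1 higher).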

How the data were processed

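The files hold a linear intensity for each probe set, and the authors obtained it by RMA with Affymetrix Power Tools, per the submitters' processing notes (versions not given in the sources used here). The log2 of each intensity was taken with no pseudocount. Of 24922 probe sets, 21425 had 1 gene symbol in the platform annotation, 1399 several and 2098 none; symbols were checked against RefSeq. The brightest probe set, by its average on the 17 arrays, stood for each of 19752 genes. A gene was tested if it exceeded the 40th percentile of an array on at least 2 arrays. A model of 6 group means over 17 arrays was fitted (limma 3.58.1, R 4.3.3), with 11 residual and 5.52 prior degrees of freedom, and p-values were adjusted by Benjamini-Hochberg over 13842 genes. The procedure was tested on simulated data. Arrays carry no sequencing depth, so the number of arrays limits the precision.

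Members named with values on every array passed in a comparison with an absolute log2 difference of at least 1; comparisons with fewer than 4 such members were filled up to 4 by adjusted p, members called in a difference of effects were added, and the 5 members with the highest mean were given in each group. At most 3 genes per pathway list and comparison were named. Members and lists were chosen with earlier results of these data known. Adult WT GFP+ and GFP- samples share the numbers 6, 7 and 8 in the labels, and same-numbered samples deviated together (r = 0.50, 0.44 and 0.19 over genes), so a fit with the number as a block is given where it changes a call. Alternatives were no filter and a 60th percentile filter, quantile normalization, median centring, array weights, the mean of a gene's probe sets, leaving out each array, and leaving out perinate KO arrays 2 and 3.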

Additional observations from a re-analysis of the deposited data

Results flagged for a closer look

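In 8 cases the effect of a contrast differed between perinates and adults by the test of the difference itself, given here as the perinate minus the adult log2 difference. For the GFP+ to GFP- contrast, Dsc3 differed by -2.65 (-3.52 in perinates, -0.87 in adults), Tjp3 by 1.39 (1.11 and -0.28), Cldn7 by 1.24 (1.52 and 0.29) and Cldn12 by -1.01 (-1.28 and -0.27). Cldn8 differed by -1.07 (-1.95 and -0.88), Cldn3 by 1.08 (0.35 and -0.72) and Cldn18 by -0.58 (0.44 and 1.02). For the KO contrast, Cldn18 differed by 0.71 (-0.33 in perinates, -1.04 in adults). Tjp3 and Cldn3 had opposite signs at the ages, but in each gene only 1 of these differences was called in the main test. The perinate Cldn3 difference was not called, and the adult Tjp3 difference was called only with the replicate number as a block. The Cldn18 calls were lost without several single arrays: for the GFP contrast without adult GFP- array 8, perinate GFP- array 2, adult WT GFP+ arrays 6 or 8 or perinate WT GFP+ array 7 (adjusted p up to 0.096), and for the KO contrast without any of 10 arrays (adjusted p up to 0.103). The other 6 GFP calls were kept without any single array.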

How the results depend on the processing

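Of 102 member calls over the 9 tests, 64 were kept under every alternative, 38 lost significance under at least 1, and 0 reversed. Counts of members called moved by more than 1.5 times as follows. The 60th percentile filter, which removes 10 of the tested members, gave 4 for KO against WT GFP+ cells in perinates (main 9), 4 in adults (main 8) and 0 for the difference of the KO effect (main 1; 2397 of all genes had an unadjusted p under 0.05 in the original test). Quantile normalization gave 5 for KO perinates, and array weights gave 2 for the difference of the KO effect. Without perinate KO arrays 2 and 3, the counts were 2 for KO perinates, 0 for the difference of the KO effect and 6 for perinate against adult KO cells (main 10). The replicate block gave 17 for perinate against adult KO cells, whose shared numbers 1, 2 and 3 did not pair the samples (r = 0.049, 0.039 and 0.059), and 23 against 19 for GFP+ and GFP- cells of adults, adding Cldn4 (-0.26, adjusted p = 0.038) and Pkp1 (-0.44, adjusted p = 0.011) beside Cldn7 and Tjp3 and changing no other call.

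Leaving out each array gave 6 to 10 calls for KO perinates, 5 to 8 for KO adults (5 without adult WT GFP+ array 8 or adult KO array 2), 0 to 2 for the difference of the KO effect, 19 to 21 for GFP perinates and 16 to 21 for GFP adults. The difference of the GFP effect gave 6 to 11 (11 without perinate GFP- array 1). Age gave 8 to 11 in WT GFP+ cells, 11 to 18 in WT GFP- cells (11 without adult GFP- array 6 or perinate GFP- array 2) and 6 to 12 in KO cells (6 without adult KO arrays 2 or 3 or perinate KO array 1). Over all genes, median centring changed the split of KO calls to 3190 higher and 1594 lower in perinates (1862 and 1802 without it) and 2127 and 1350 in adults (1254 and 1497). Probe sets near background limit the dim claudins Cldn8, Cldn10, Cldn18, Cldn19, Cldn20 and Cldn23, and the desmoglein Dsg3.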
